A study of Mus musculus with 9 samples.

Results

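Integrins and laminins were followed in stomachs of newborn mice lacking C/EBPβ. The genes were taken by name: every probe whose gene symbol on the array starts with Itga, or is Itgb or a laminin α, β or γ symbol followed by its number, gave 37 genes, 26 integrin chains and 11 laminin chains, of 35080 genes on the arrays. They are read by 51 probes, and each gene is given by its probe with the highest mean. Values are levels in log2, the processed spot intensity minus the array's 75th percentile, and a difference is the knockout mean minus the wild-type mean.

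The study compared 5 stomachs with genotype C/EBPbeta KO and 4 stomachs with genotype WT, with 1 array per mouse and no further treatment. The mice were killed at birth, although the source label calls them old, and the labels give neither the strain, the removed part of the gene nor whether the deletion reached all tissues. The mice are numbered KO 1 to KO 5 and WT 1 to WT 4. Whole stomach was used, so squamous forestomach, glandular stomach, muscle, vessels and blood cells share each sample.

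Integrins are cell surface receptors made of an α and a β chain. Laminins are trimers of an α, a β and a γ chain that form the sheet of the basement membrane. In squamous epithelium, the integrin of Itga6 and Itgb4 binds a laminin that contains the Lama3 and Lamb3 chains and ties the keratin filaments of basal cells to the basement membrane through hemidesmosomes. Leukocyte integrins, by contrast, bind ligands on vessel walls and other cells, and Itgb1 pairs with many α chains that read fibronectin, collagen and laminin. C/EBPβ is a transcription factor of the leucine zipper type with known roles in macrophages and in keratinocyte differentiation.

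Of the 37 genes, 34 had signal well above background on 4 or more of the 9 arrays, the condition for a test. Itgad, Itgae and Itgb8 reached it on 0 of 9 arrays and are not described further. The 75th percentile of the processed signal ranged from 221 to 472 per array, and 50.9% to 57.2% of the spots were well above background. Cebpb itself lay between 3.00 and 3.71 in the wild types and between −2.87 and −1.58 in the knockouts, a difference of −5.48 ± 0.30 (SE; limma adjusted p = 0.000123), so its level matched the genotype label of every array. WT 4 stood apart: its fibroblast markers summed to 346 on the scaled signal against 578 to 790 in WT 1 to WT 3. Its squamous differentiation markers summed to 688 against 1989 to 2455, and its simple epithelium markers to 671 against 395 to 482. The arrays lay on 4 slides. Slide 1 carried KO 4, KO 5, WT 3 and WT 4, slide 4 carried KO 2, WT 1 and WT 2, and KO 1 and KO 3 each lay on a slide without a wild type. A value within slide 4 therefore sets KO 2 alone against 2 wild types. The 3 Y-linked genes tested summed to 0.0225 to 0.127 in KO 2, KO 4 and KO 5 and to 4.68 to 6.97 in KO 1, KO 3 and the wild types, so that sex was not balanced between the genotypes.

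No integrin or laminin gene passed the test between genotypes. The tested genes held 0 calls at an adjusted p below 0.05 (limma, Benjamini-Hochberg over 21722 genes), where 0.203% of all genes were called, 0.124% higher and 0.0783% lower in the knockouts. At an unadjusted limma p below 0.05 there were 4 of 34 (11.8%), Itgax, Itgb7 and Itga11 above 0 and Itga5 below, beside 8.73% of all genes, 5.05% higher and 3.68% lower. The knockout and wild-type arrays did not overlap for 2 of 34 (5.88%), both higher, beside 3.38% of all genes in either direction, 2.31% higher and 1.08% lower. Differences above 0 were found for 23 of 34 (67.6%), beside 50.9% of all genes, and below 0 for the other 11, beside 49.1%. With other settings the number above 0 ranged from 18 of 34 on slide 4 alone to 25 of 34 without WT 1. It was 19 of 34 with a term for the Y-linked level. This split is not read as a result about these genes. The shares called or not overlapping rest on 0, 2 and 4 genes, lay near the background and are not read as a result about these genes. The median difference was 0.09 for the 23 integrins and 0.18 for the 11 laminins, beside 0.0049 for all genes tested.

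The differences were mostly small. Of the 34 genes, 29 had a difference smaller than 0.5 in either direction, and 1, Itga5, had one larger than 1. The 95% intervals reached from 0.307 to 1.43 on either side of the estimate, with a median of 0.517, and for 24 genes the whole interval lay inside −1 to 1. For the probe used of these 24 genes, a change of more than 2-fold therefore lay outside the interval, which is not adjusted for the number of genes. The fit behind the intervals had no term for slide or sex. Itgb3 and Itga8 are among the 24, but another probe of Itgb3 gave −0.98, and Itga8 lay at −1.19 within slide 4. Smaller changes could be missed by the adjusted test with 9 arrays.

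**Figure D1:**
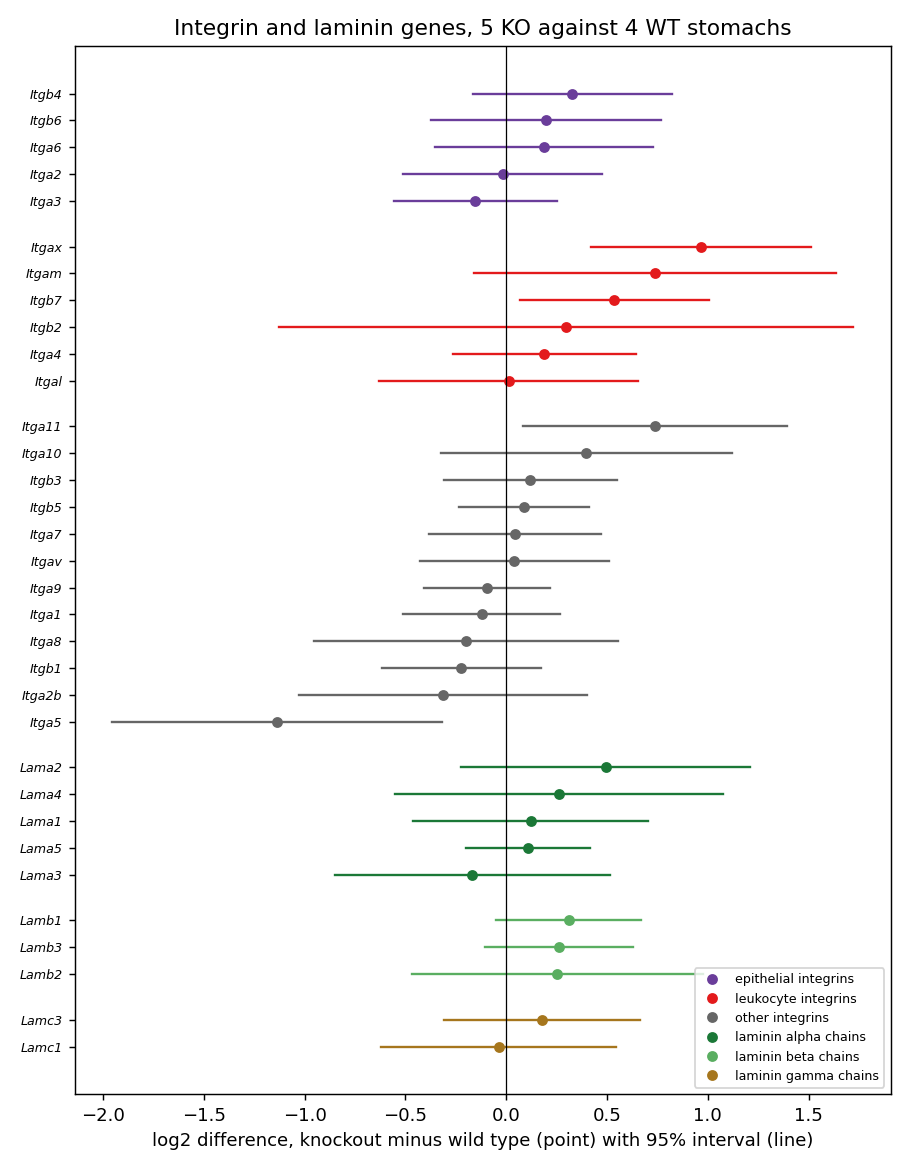
Difference in log2 level, knockout minus wild type, for 33 of the 34 tested integrin and laminin genes, grouped by role; points are estimates and bars 95% intervals from limma (5 KO and 4 WT arrays). Itgax lies farthest to the right at 0.97 and Itga5 farthest to the left at −1.14, and none of the genes shown passed the test.

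The epithelial integrins were 5 genes, Itga2, Itga3, Itga6, Itgb4 and Itgb6, of which 3 had differences above 0 and 2 below, with a median of 0.19 and 0 calls. Itgb4, the β chain of the hemidesmosome integrin, had levels of 3.32, 3.46, 3.11, 2.62 and 3.23 in KO 1 to KO 5 and 2.65, 2.72, 2.57 and 3.34 in WT 1 to WT 4. All knockouts but KO 4 lay above WT 1 to WT 3, while WT 4 lay among the knockouts. The difference was 0.33 ± 0.22 (SE; limma adjusted p = 0.763), −0.03 within slide 1 and 0.78 within slide 4. Without WT 4 it was 0.50 (limma adjusted p = 0.260).

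Its partner Itga6 had levels of 6.05, 6.31, 5.88, 5.70 and 5.72 in the knockouts and 5.63, 5.61, 5.29 and 6.46 in the wild types. Here too the 5 knockouts lay above WT 1 to WT 3, and WT 4 was the highest of all arrays. The difference was 0.19 ± 0.24 (limma adjusted p = 0.910), and 0.42 without WT 4. A further probe of Itga6 gave −0.22. Itgb6, the epithelial chain that pairs with αv and activates latent TGFβ, also had WT 4 high, below KO 2 alone. It had 0.25, 0.64, −0.17, −0.07 and −0.23 in the knockouts and −0.51, −0.04, −0.41 and 0.51 in the wild types. Its difference was 0.20 ± 0.26 (limma adjusted p = 0.907), 0.06 without KO 2, 0.07 without WT 1, 0.10 without WT 3 and 0.41 without WT 4.

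Itga3, the α chain of a laminin receptor of basal epithelial cells, had −0.02, 0.28, 0.23, 0.27 and 0.11 in the knockouts and 0.08, 0.73, 0.51 and −0.02 in the wild types, and the groups overlapped. Its difference was −0.15 ± 0.18 (limma adjusted p = 0.893). Itga2, a collagen receptor chain, ranged from −3.73 to −2.82 in the knockouts and from −3.37 to −2.68 in the wild types, a difference of −0.02 ± 0.22.

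Beside these integrins, the 12 markers of squamous basal cells had 3 differences above 0 and 9 below, with summed scaled signals of 166 to 310 in the knockouts and 115 to 295 in the wild types, WT 4 having 115. The 18 markers of squamous differentiation had 4 differences above 0 and 14 below. They summed to 544 to 1478 in the knockouts and 688 to 2455 in the wild types, WT 4 having 688. The 16 markers of gastric surface and gland cells had 16 differences above 0, and summed to 1632 to 2542 in the knockouts and 1215 to 1969 in the wild types, WT 4 having 1969. Fewer cells of a type and less RNA per cell cannot be told apart in whole tissue, and the part of this tissue makeup in the integrin values was not tested.

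Some probes show where in the chain they read. The probe of Itga2 holds the codons of GFFKR, the motif just inside the membrane that α chains share, and the probe of Itgb1 spans an intron and holds the codons of both NPxY motifs of the β tail, where talin and kindlin bind. They are shown because they place these readings in the coding sequence; the Itga2 run gives the first 30 of its 60 bases and the Itgb1 run all 60, both 5′ to 3′, with the codons of the motifs in capitals.
Itga2: ctcGGCTTCTTCAAAAGAcaatataagaaa
Itgb1: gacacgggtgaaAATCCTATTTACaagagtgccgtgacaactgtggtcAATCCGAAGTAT
On mouse build mm9 the Itga2 probe lies at chr13:115626714-115626773 on the minus strand and the Itgb1 probe at chr8:131250081-131255976 on the plus strand. Whether the other probes lie in coding sequence or in a UTR was not analysed here.

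The 11 laminin chains had 8 differences above 0 and 3 below, between −0.17 and 0.49, with 0 calls and 0 genes whose groups did not overlap. Among the α chains, Lama2, the chain of the muscle basement membrane, had 2.11, 2.34, 2.63, 2.33 and 2.51 in KO 1 to KO 5 and 2.34, 2.26, 2.24 and 0.72 in WT 1 to WT 4. All arrays but WT 4 lay between 2.11 and 2.63. The difference of 0.49 ± 0.32 (limma adjusted p = 0.752) was 0.10 without WT 4, the largest in size among the laminins with that array and small without it.

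Lama4, the α chain of vessel and smooth muscle basement membranes, had the same shape: 2.14, 2.15, 2.19, 2.80 and 2.33 in the knockouts and 2.47, 2.36, 2.67 and 0.75 in the wild types. Its difference was 0.26 ± 0.36 (limma adjusted p = 0.918) and turned to −0.17 without WT 4. Lama5, the main α chain of epithelial basement membranes after early development, was the steadiest, with 4.62, 4.60, 4.45, 4.42 and 4.76 in the knockouts and 4.64, 4.47, 4.32 and 4.43 in the wild types. Its difference of 0.11 ± 0.14 (limma adjusted p = 0.909) lay within the spread of either group. Lama1, the α chain of the early embryo's basement membrane, ranged from −0.04 to 1.03 in the knockouts and from −0.01 to 0.63 in the wild types, a difference of 0.12 ± 0.26.

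The differences of Lama3 and Lamb3, chains of the laminin that hemidesmosomes bind, had opposite signs. Lama3 had −0.94, −0.89, −0.77, −0.14 and −1.02 in the knockouts and −0.20, −0.25, −0.33 and −1.56 in the wild types. All knockouts but KO 4 lay below WT 1 to WT 3, KO 4 lay above them, and WT 4 was the lowest of all arrays. The difference was −0.17 ± 0.31 (limma adjusted p = 0.945), −0.49 without WT 4, 0.37 within slide 1 and −0.67 within slide 4, and another probe of Lama3 gave 0.24. Lamb3 had 3.09, 3.24, 2.80, 2.93 and 2.67 in the knockouts and 2.68, 2.75, 2.43 and 2.87 in the wild types, and KO 5 and WT 4 made the groups overlap. Its difference was 0.26 ± 0.16 (limma adjusted p = 0.737).

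The widely used chains Lamb1 and Lamc1, which are part of most basement membranes, both had WT 4 as the lowest array. Lamb1 had 4.57, 4.72, 4.89, 4.69 and 4.99 in the knockouts and 4.67, 4.60, 4.45 and 4.13 in the wild types. The groups overlapped through KO 1, and the difference was 0.31 ± 0.16 (limma adjusted p = 0.642; two-sided exact permutation p = 0.0556), or 0.20 without WT 4. Lamc1 had 4.23, 4.41, 4.40, 4.80 and 4.43 in the knockouts and 4.68, 4.93, 4.73 and 3.62 in the wild types. Its difference was −0.04 ± 0.26 (limma adjusted p = 0.989), and −0.33 without WT 4.

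Lamb2, the β chain of mature muscle, nerve and kidney basement membranes, had 2.21, 2.25, 2.34, 2.68 and 2.15 in the knockouts and 2.29, 2.34, 2.73 and 0.93 in the wild types, so that WT 4 again stood below the rest. Its difference was 0.25 ± 0.32 (limma adjusted p = 0.907), and −0.13 without WT 4. Lamc3, a γ chain of more restricted use, had −1.32, −0.77, −1.19, −1.55 and −0.77 in the knockouts and −1.69, −1.20, −1.34 and −0.96 in the wild types, and the groups overlapped with a difference of 0.18 ± 0.22 (limma adjusted p = 0.899). WT 4 was the lowest of the 9 arrays for 6 of the 11 laminins and for 3 of the 23 integrins. The 12 smooth muscle markers summed to 956 to 1513 in the knockouts and 1320 to 2102 in the wild types, WT 4 being the lowest wild type at 1320, and their part in the laminin levels of that array was not tested.

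**Figure D2:**
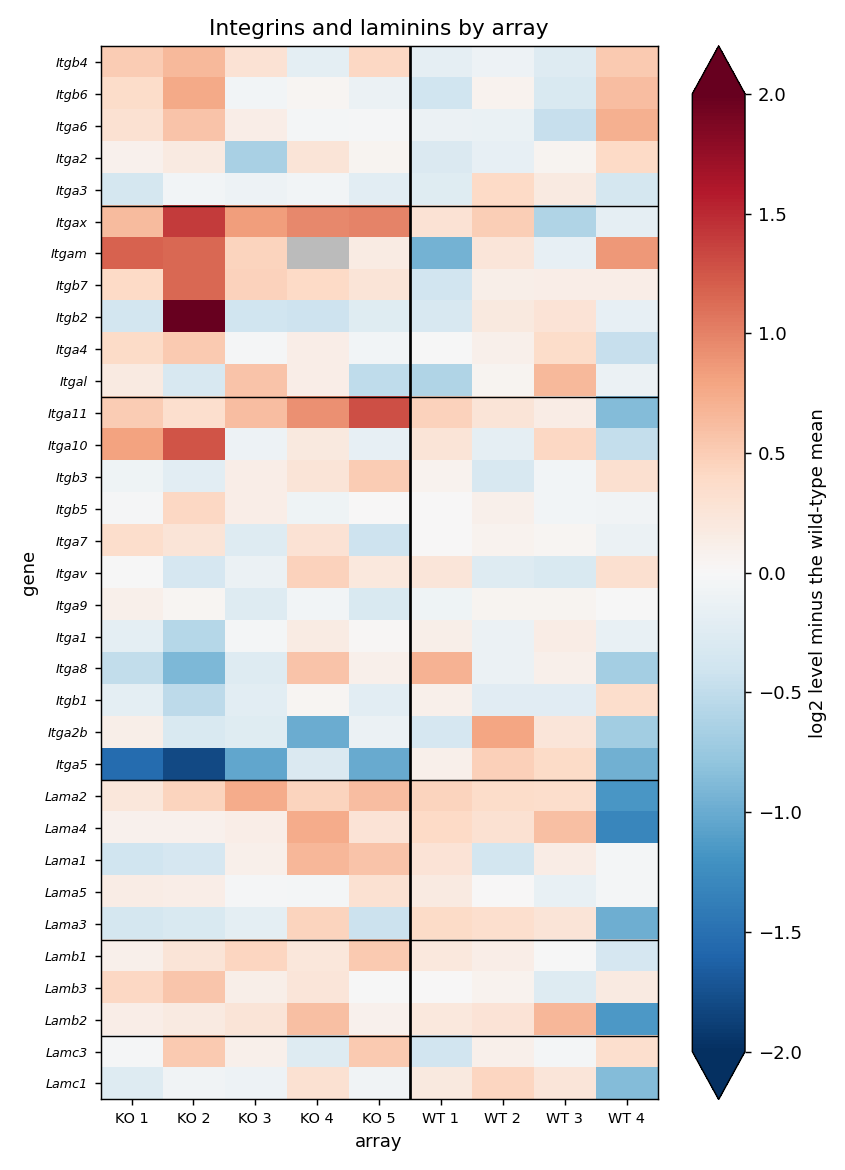
Log2 level minus the wild-type mean of each gene for 33 of the 34 tested genes (rows, by role) on the 9 arrays (columns, KO 1 to KO 5 and WT 1 to WT 4), colours capped at −2 and 2, grey for the value of Itgam left out on KO 4. The WT 4 column is low for 6 of the 11 laminins, KO 2 stands out for Itgb2, and the Itga5 row is lower in the knockouts.

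Of the 8 leukocyte integrins, 6 were tested. All 6 differences were above 0, with a median of 0.42 and 0 calls. The 2 genes whose groups did not overlap, Itgax and Itgb7, were both among them, where 2.31% of all genes did not overlap and were higher. This count is not read as a result about the leukocyte integrins, and Itgax passed the filter mainly through the knockouts. Some of the 6 signs depended on the probe or the arrays. Itgam lay at 0.06 by another probe, Itgb2 at −0.35 without KO 2, and Itgal at 0.01. Within slide 1 Itgam, Itgb2 and Itgal lay at −0.19, −0.38 and −0.46, while Itgax, Itgb7 and Itga4 lay above 0. Itgax, which encodes CD11c, the α chain found on dendritic cells and some macrophages, had −3.11, −2.34, −2.90, −2.77 and −2.76 in KO 1 to KO 5 and −3.46, −3.25, −4.34 and −3.92 in WT 1 to WT 4. Every knockout lay above every wild type. The difference was 0.97 ± 0.24 (SE; limma p = 0.00272, adjusted p = 0.264), and the two-sided exact permutation p was 0.00794, the smallest that 126 splits of the arrays can give. It was 1.01 within slide 4.

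The signals behind Itgax were dim. All 5 knockout arrays read it well above background, but only WT 1 and WT 2 among the wild types did, so the gene passed the filter mainly through the knockouts, with processed signals of 34.1 to 67.8 in the knockouts and 14.7 to 37.5 in the wild types. The wild types of slide 1, WT 3 and WT 4, were not well above background. Where their own signal was lower, they were raised to the lowest signal well above background on their arrays. Within that slide the knockouts then lay 2.24-fold higher. This value depends on the chosen floor and does not bound the difference. With another background correction, which added an offset of 50, its difference was 0.17.

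Itgb7, the β chain of the integrins that home lymphocytes to the gut and hold them in epithelium, had −1.44, −0.69, −1.37, −1.44 and −1.57 in the knockouts and −2.22, −1.71, −1.71 and −1.71 in the wild types. The groups did not overlap, with KO 2 far above and WT 1 far below the rest of their groups. The difference was 0.54 ± 0.21 (limma adjusted p = 0.508; two-sided exact permutation p = 0.0159), 0.20 within slide 1 and 1.28 within slide 4. With the background correction that added the offset it was 0.26.

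The first 30 bases of both probes are shown, with those of Itga5 and Itga11, whose values are given further on, because these 4 genes had the smallest p-values of the set. No capitals are used in them.
Itgax: tcccatctacttttgcaacgttggaattga
Itgb7: atttttcagagtgaccttcagagggcagca
Itga5: gggttgatctggagcccagtctcggattct
Itga11: gtttcatctgaacaatgtcatctgttcccc
On mm9 they lie at chr7:135294052-135294111 (plus), chr15:102046450-102046509 (minus), chr15:103175022-103175081 (minus) and chr9:62631667-62631726 (plus).

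Itgam, which encodes CD11b, the α chain of macrophages and neutrophils, had 6.65, 6.62, 5.92 and 5.63 in KO 1, KO 2, KO 3 and KO 5 and 4.52, 5.70, 5.30 and 6.34 in WT 1 to WT 4. Its spot on KO 4 carried an outlier mark and was left out, so the fit used 8 arrays. The groups overlapped, and the difference was 0.74 ± 0.40 (limma adjusted p = 0.665), −0.19 within slide 1 and 1.51 within slide 4. The probe read here holds a repeat. Of the 3 Itgam probes on chromosome 7, the one with the highest mean starts at transcript base 4431 with 10 CA in a row, in capitals here, while those at bases 270 and 3410 hold no such run. The first 30 bases of each are shown because the 3 probes gave different readings of the same gene.
Itgam at base 270: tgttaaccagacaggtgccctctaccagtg
Itgam at base 3410: aagttcacaatcctgtaccactcattgtgg
Itgam at base 4431: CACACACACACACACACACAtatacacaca

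The probe at base 3410, well above background on 9 arrays, had −2.10, −2.21, −2.59, −2.66 and −2.23 in the knockouts and −2.65, −2.64, −2.63 and −1.76 in the wild types, a difference of 0.06. The groups overlapped fully and WT 4 was the highest array. The probe at base 270, well above background on 1 array, gave −0.46. Of 55681 probes, 34 (0.0611%) hold 8 or more CA in a row, and 32 of these (94.1%) were well above background on all 9 arrays, against 44.1% of the other probes. The median level of these 32, which do not include the Itgam probe, was 5.75, 5.19, 4.86, 4.26 and 4.39 in KO 1 to KO 5 and 3.35, 4.47, 3.87 and 5.21 in WT 1 to WT 4, so WT 1 was lowest and KO 1 highest, as for the Itgam probe. All 32 had a difference above 0, with a median of 0.62. These probes were chosen after the Itgam sequence had been seen, and no value for Itgam rests on them.

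**Figure D3:**
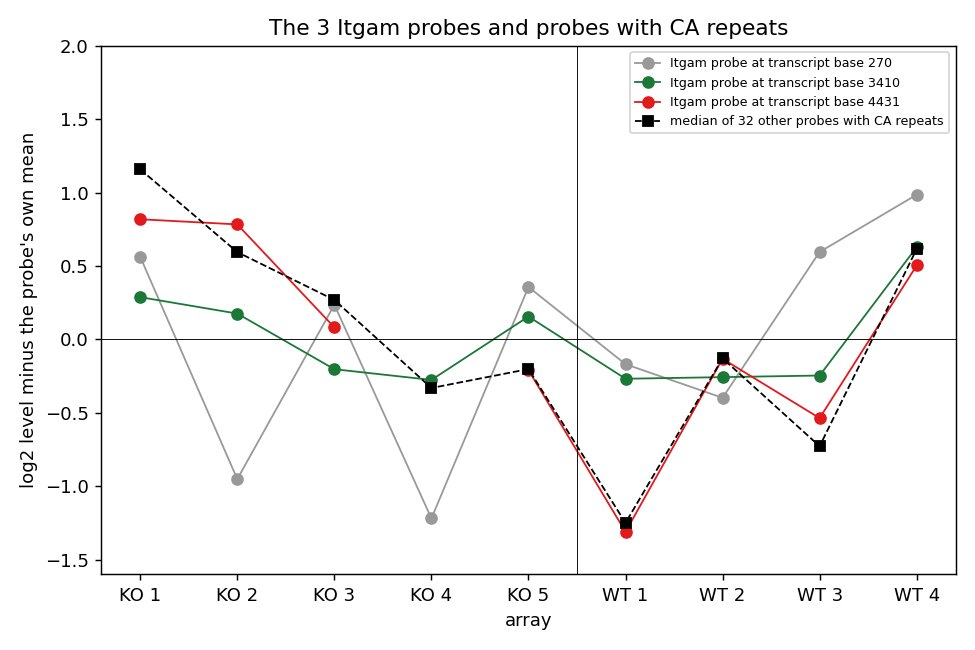
Log2 level minus the probe's own mean over the 9 arrays for the 3 Itgam probes, named by their start in the transcript, and for the median of 32 other probes with 8 or more CA in a row, by array (KO 1 to KO 5, WT 1 to WT 4); lines only join the points of a probe. The probe at base 4431 and the median of the repeat probes have their lowest value on WT 1, while the probe at base 3410 lies between −0.3 and 0.3 of its mean on every array but WT 4.

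Itgb2, the β chain shared by CD11a, CD11b and CD11c, had −2.71, 0.56, −2.74, −2.75 and −2.58 in the knockouts and −2.66, −2.14, −2.06 and −2.51 in the wild types. KO 2 alone lay far above all others, with a processed signal of 420 against 44.7 to 76.7 in the other knockouts. The difference was 0.30 ± 0.64 (limma adjusted p = 0.955) and −0.35 without KO 2. Itga4, the lymphocyte and monocyte chain that binds Vcam1 and fibronectin, ranged from −0.39 to 0.19 in the knockouts and from −0.79 to 0.05 in the wild types, a difference of 0.19 ± 0.20. Itgal, which encodes CD11a, the lymphocyte chain that binds Icam1, ranged from 0.67 to 1.76 and from 0.59 to 1.84, a difference of 0.01 ± 0.29. Its other probes read much lower, with wild-type means of −2.79 and −3.78 against 1.18 for the probe used.

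Markers of blood cells were set beside these genes. The 14 markers of macrophages and general leukocytes had 11 differences above 0 and 3 below, with 0 calls, and summed to 35.9 to 48.6 in the knockouts and 24.0 to 46.3 in the wild types, WT 4 having 24.0. The granulocyte markers, 7 of 11 tested, had 3 differences above 0 and 4 below, a median of −0.12 and 1 called lower, S100a9, a neutrophil protein also made by squamous epithelium, at −2.77 ± 0.36 (limma adjusted p = 0.0160). They summed to 87.1 to 178.7 in the knockouts and 118.5 to 255.8 in the wild types. The megakaryocyte and platelet markers, 6 of 9 tested, had 2 above 0 and 4 below, with 0 calls. Lymphocyte markers, of which 5 of 11 could be tested, summed to 4.57 to 5.06 and 3.42 to 5.41. Dendritic cell markers, a list of 12 genes added after the Itgax values had been seen, had 8 genes tested, 7 differences above 0 and 3 called higher. Of all genes tested, 0.124% were called higher. The list was written with earlier results of these data known, so neither its calls nor its sum is read as support for the Itgax values. The 3 called were Cd209a, H2-Eb1 and Cd74, at 2.89 ± 0.36, 2.48 ± 0.27 and 2.12 ± 0.30 (limma adjusted p = 0.0139, 0.00979 and 0.0277). The transcription factors Zbtb46 and Batf3 and the growth factor receptor Flt3, which mark the dendritic lineage more closely, lay at 0.47 ± 0.37, 0.19 ± 0.24 and −0.31 ± 0.53 (limma adjusted p = 0.80, 0.905 and 0.942), with overlapping groups. The summed scaled signals of the 8 genes were 11.5 to 19.1 in the knockouts and 2.41 to 6.93 in the wild types, which did not overlap. Ciita, Xcr1, Clec9a and Ccr7 were not tested for low signal, and the part of any of these cell types in the leukocyte integrin values was not tested.

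Of the 13 other integrins, 12 were tested, 6 with differences above 0 and 6 below, with a median of −0.03. Itga5, the α chain of the main fibronectin receptor, had −0.21, −0.47, 0.30, 1.05 and 0.33 in KO 1 to KO 5 and 1.44, 1.82, 1.72 and 0.37 in WT 1 to WT 4. WT 1 to WT 3 lay above every knockout, and WT 4 lay among them. The difference was −1.14 ± 0.37 (limma p = 0.0115, adjusted p = 0.410; two-sided exact permutation p = 0.0397), with a wild-type mean 2.20-fold above the knockout mean. It was −1.46 without WT 4 (limma adjusted p = 0.0792), −0.36 within slide 1 and −2.10 within slide 4.

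Itga11, a collagen receptor chain of fibroblasts, had −0.35, −0.52, −0.25, 0.05 and 0.43 in the knockouts and −0.40, −0.61, −0.72 and −1.73 in the wild types. Only KO 2 lay below the highest wild type, and WT 4 was the lowest array. The difference was 0.74 ± 0.29 (limma adjusted p = 0.510; two-sided exact permutation p = 0.0318), 0.45 without WT 4, 0.47 with a term for the Y-linked level, 1.47 within slide 1 and −0.02 within slide 4. The 10 fibroblast markers summed to 607 to 882 in the knockouts and 346 to 790 in the wild types, WT 4 having 346, and their part in the Itga11 values was not tested.

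Itgb1, the β chain of most matrix receptors, had 3.06, 2.74, 3.06, 3.30 and 3.05 in the knockouts and 3.37, 3.03, 3.04 and 3.62 in the wild types. The groups overlapped, and the difference was −0.22 ± 0.18 (limma adjusted p = 0.805), with −0.24 from a further probe. It was −0.15 without KO 2 and −0.10 without WT 4. The others had differences between −0.31 and 0.40. Itga10, a collagen receptor chain of cartilage, lay at 0.40 ± 0.32, and Itga2b, the platelet chain, at −0.31 ± 0.32 with signal well above background on 3 knockout and 2 wild-type arrays. Itga8, a chain of smooth muscle and mesenchyme, lay at −0.20 ± 0.34 and Itga1, a collagen receptor chain, at −0.12 ± 0.17. Itga9, Itgb3, Itgb5, Itga7 and Itgav lay at −0.10, 0.12, 0.09, 0.04 and 0.04. These include the chains of the vitronectin receptors and the muscle laminin receptor chain Itga7, and each lay within its error of 0.14 to 0.21.

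**Figure D4:**
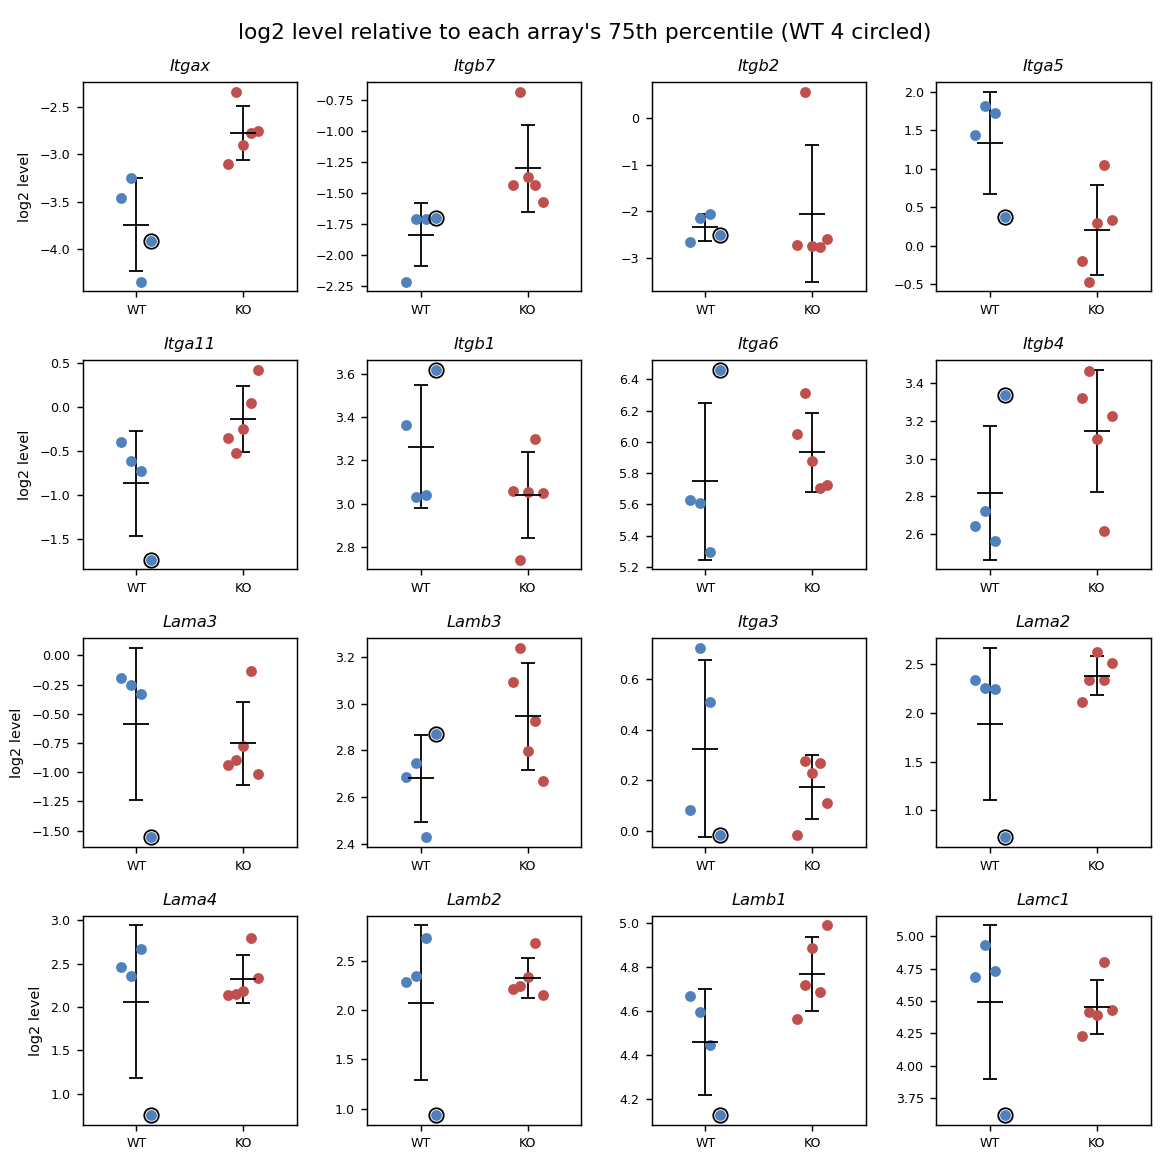
Log2 level of 16 integrin and laminin genes on each array, knockout and wild type side by side; points are arrays, bars the mean ± SD (5 KO, 4 WT), and WT 4 is circled. The groups do not overlap for Itgax and Itgb7, and WT 4 lies away from the other wild types for Itga5, Itga6, Lama2 and Lama4.

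Of the 11 genes read by more than 1 probe that passed the filter, 5 had probes whose differences disagreed in sign: Itga6, Itgal, Itgb3, Itgb6 and Lama3. The widest gap among these was in Itgb3, at 0.12 for the probe used and −0.98 for another.

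Partners of the integrins and laminins were taken as 6 lists. Over all genes tested, 0.203% were called, and 3.38% had groups that did not overlap, 2.31% higher and 1.08% lower. The counts called or not overlapping in these lists are small and are not read as a result about the lists. The laminin receptors outside the integrin family held 10 genes, 4 above 0 and 6 below, with 1 called. This was Sdc4, a membrane proteoglycan that binds laminin and fibronectin and acts together with integrins, which rose by 3.25 ± 0.27 (limma adjusted p = 0.00150), from a wild-type mean of −0.08 to 3.16 in the knockouts. Bcam, a receptor for Lama5, lay at −0.43 ± 0.36 (limma adjusted p = 0.822).

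The basement membrane partners of laminin, 23 of 24 tested, had 17 differences above 0 and 6 below, a median of 0.18 and 0 calls, and 3 genes whose groups did not overlap, all higher. Smoc1, a matrix protein of basement membranes, lay at 1.51 ± 0.28 (limma adjusted p = 0.0958), although only 2 of 4 wild-type arrays read it well above background. Col4a6, a collagen IV chain of smooth muscle and epithelial basement membranes, lay at 0.82 ± 0.17 (limma adjusted p = 0.143), with 2.51 to 2.94 in the knockouts and 1.58 to 2.20 in the wild types. The third was Pxdn, a peroxidase that cross-links collagen IV, at 0.26 ± 0.18 (limma adjusted p = 0.765).

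Among the 6 hemidesmosome partners, 2 had differences above 0 and 4 below, with 0 calls. Plec, plectin, which ties Itgb4 to keratin filaments, lay at −0.34 ± 0.13 (limma adjusted p = 0.507), every knockout below every wild type. Col17a1, the transmembrane collagen of the hemidesmosome, lay at 0.31 ± 0.20 (limma adjusted p = 0.741).

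The 30 genes of integrin activation and the adhesion plaque had 16 differences above 0 and 14 below, a median of 0.02, 0 calls and 0 genes whose groups did not overlap. Bcar1, the docking protein p130Cas, lay at 0.40 ± 0.20 and Parvb, a parvin that binds Ilk, at −0.34 ± 0.17 (limma adjusted p = 0.633 and 0.642). Of 20 matrix ligands, 19 were tested, with 13 above 0 and 6 below, a median of 0.25 and 0 calls. Postn, a fibroblast matrix protein, lay at 0.95 ± 0.32 and Ccn1 at 0.68 ± 0.26 (limma adjusted p = 0.425 and 0.484), and Postn alone had groups that did not overlap. Of 10 cell surface ligands of leukocyte integrins, 9 were tested, with 8 above 0, 1 below and 0 calls. The junction proteins F11r and Jam2 both lay at 0.40, ± 0.16 and ± 0.17 (limma adjusted p = 0.516 and 0.542), each with groups that did not overlap.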

How the data were processed

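RNA from 9 stomachs was read on 1-colour Agilent arrays. Per the file headers, the deposited intensity values were made by the authors with Feature Extraction 10.5.1.1 on a design annotated on mm9, whereas the submitters' processing notes name version 9.1, and background was subtracted without scaling between arrays. The deposited files also hold flags per spot. The authors' series matrix holds log2 values; over 24294 probes its differences between arrays followed log2 of the processed signal within 0.001 after 1 constant per array (100%), and its centring is unknown. In array order its medians per column were 0.0436, 0.217, −0.124, 0.0347, −0.137 (knockouts) and −0.279, −0.161, 0.224, 0.381 (wild types).

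Control spots and outlier spots were left out, spots of a probe were averaged, and log2 values had the array's 75th percentile subtracted. Probes well above background on at least 4 arrays were kept, with 1 probe per gene. Of 55681 probes, 26762 matched RefSeq names (GRCm38.p6) by accession. Differences were tested with limma 3.58.1 (R 4.3.3) on all 21722 genes, with Benjamini-Hochberg adjustment and a threshold of 0.05. In data simulated for this comparison on 21721 genes, 37.3%, 82.1% and 93.9% of log2 changes of 1, 2 and 3 were recovered. The simulated noise was independent for each gene and array, without differences by slide or sex and without shifts shared by the genes of an array. These shares therefore need not hold for the real arrays. Exact permutation tests used all 126 splits and are two-sided. Intervals are 95% limma intervals.

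Values by array are given for the 8 genes with the smallest p, up to 3 per role, and chains of the hemidesmosome laminin and its receptor, except 1 gene that is counted but not reported here; of each partner list the 2 genes with the smallest p are named. The genes and lists were chosen with earlier results of these data known. The labels give separate mouse numbers, with 1 array per mouse, so p-values measure the spread between mice together with that between arrays and slides. Slide and sex were not balanced between the genotypes and had no term in the main fit. The number of arrays limits the precision. Alternatives were quantile normalization, normexp, 2 filters, the mean of a gene's probes, slide, mouse number and Y-linked level as terms, the series matrix, and leaving out each array.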

Additional observations from a re-analysis of the deposited data

Results flagged for a closer look

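In 9 of 68 combinations of a gene and a genotype, the gap between 1 array and the nearest of its group was a large share of the group's whole range (Dixon's test); chance alone gives this in about 1 in 20 groups. On WT 4, Lama2 lay at 0.72 (nearest other wild type 2.24), Lama3 at −1.56 (nearest −0.33) and Lama4 at 0.75 (nearest 2.36). On KO 4, Lama3 lay at −0.14 (nearest other knockout −0.77) and Lama4 at 2.80 (nearest 2.33). On KO 2, Itgb2 lay at 0.56 (nearest −2.58) and Itgb7 at −0.69 (nearest −1.37). Itgb7 on WT 1 lay at −2.22 (nearest −1.71), and Itga2 on KO 3 at −3.73 (nearest −3.03). All values are log2 levels, and 3 of the 9 came from WT 4.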

How the results depend on the processing

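No integrin or laminin gene passed the threshold under any alternative run, and the limma adjusted p nearest to it were 0.0535 for Itgb2 and 0.0725 for Itga5 on slide 4 alone, and 0.0792 for Itga5 without WT 4. On slide 4 the lone knockout is KO 2, the array far from the others for Itgb2, and it is assumed to vary like the wild types. The count of all genes past it, 44, was 22 with no filter on dim probes, 5 with slide as a block, 4 with a term for the Y-linked level, 2 on slide 1 alone, 63 on slide 4 alone, and from 11 (without WT 1) to 161 (without WT 4) when 1 array was left out. Mouse numbers did not pair the samples, with same-number correlations of −0.305, 0.122, 0.153 and −0.482, and only numbers 2 and 3 correlated best with their own; a replicate block by that number left 4 genes. The median difference of the integrins, 0.09, was 0.22 on slide 4 alone and −0.0286 on slide 1 alone, and 0.06 to 0.14 with 1 array left out. That of the laminins, 0.18, was −0.0682 and 0.44 on those slides, 0.09 to 0.23 with 1 array left out and 0.06 with the Y-linked term. Both single-slide analyses were added after the data had been seen. The causes were not tested. Itgax, at 0.97, was 0.17 with normexp, and Itgam, at 0.74, was 0.06 where all 9 arrays had to be well above background, which put another probe in its place. Signal over background limits the values of Itgax and Itga2b, which only some arrays read well above background.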

Other observations

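A search of RefSeq promoters (GRCm38.p6) for the C/EBP motif TTGCNNAA on both strands, in the 250 bases before the start, found it in 0 of 25 windows of 22 integrin and laminin genes and in 3142 of 32851 windows of all genes (9.6%). The match is to letters only, and nothing about binding follows from it.

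The Itgal probe used is numbered base 4428 of its annotated transcript. On mm9 it lies before the 2 other Itgal probes, which are numbered 3639 and 3543, so the numbers do not follow 1 transcript. Those 2 probes gave differences of −0.11 and −0.16 beside 0.01. KO 2 was the highest of the 9 arrays for 8 of the 23 integrins and the lowest for 5.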
